A study of Mus musculus with 6 samples.

Results

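The genes described here encode metalloproteinases and their tissue inhibitors: matrix metalloproteinases (MMPs), membrane-anchored ADAM proteases, secreted ADAMTS proteases and TIMPs. The list names 35 genes of these families. A gene was read from the probe set that names it and no other gene, and from the brightest of these by the mean over the 6 arrays where it had several. This gave 33 measured genes of 22180 in all. No value was taken for Mmp15 or Adamts2, whose symbols the annotation table used here does not pair with a probe set.

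The arrays (Affymetrix Mouse Gene 2.0 ST) measured total RNA of untreated myoepithelial cells, the contractile cells around the acini of the exorbital lacrimal gland, grown out of collagenase-digested glands, with serum, over roughly 2 to 3 weeks. One group of 3 arrays came from female TSP1 null mice, which lack thrombospondin-1 (TSP1, encoded by Thbs1) and serve in the series as a model of dry eye disease. The other 3 arrays came from female wild type C57BL/6J mice. The labels call the arrays of each group biological replicates. They do not state the background strain of the null mice, the ages, or whether each array had its own animal or culture. The p-values therefore speak only of the spread among the arrays, and how much of that spread is technical is unknown here. Values are log2 signals, and differences are the null mean minus the wild type mean with limma's standard error.

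MMPs are zinc enzymes that cut collagens, laminins and other matrix proteins, and most are made as inactive proenzymes. ADAM proteases mainly release membrane-bound growth factors, cytokines and receptors, while ADAMTS proteases process procollagens and cut proteoglycans through a body that carries thrombospondin type 1 repeats, the module first described in TSP1. TIMPs bind the active site of these enzymes. TSP1 and its relative TSP2 bind MMP2, and this complex is taken up through the scavenger receptor LRP1.

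The 6 arrays had median signals between 5.25 and 5.32, and genes at or below the median of all probe sets are called dim here. Thbs1 itself read 12.73, 13.03 and 13.00 on the null arrays and 13.51, 13.75 and 13.54 on the wild type arrays, so a bright signal remained in the null group. Its difference was -0.68 (SE 0.13, adjusted p = 0.25), and as the position of its probes on the disrupted gene is unknown here, it checks the labels weakly. The 20 macrophage markers (among them Cd68, Adgre1, Csf1r and C1qa) had a mean level of 9.10, 9.90 and 7.44 on the null arrays and 9.75, 10.39 and 10.55 on the wild type arrays. Of these 20 markers 19 lay above the median of all probe sets, and in 19 the third null array was the lowest of the 6. Of the measured myoepithelial and contractile markers 10 of 11 lay above that median, among them the contractile genes Acta2 (means 13.93 and 13.98) and Tagln (12.33 and 12.37). The basal epithelial genes were low, with Trp63 below the median on every array (4.47 to 4.93) and Krt14 at 6.35, 6.21 and 5.78 on the null and 4.93, 5.23 and 5.52 on the wild type arrays. Fibroblast markers were above the median in 12 of 13 cases, at a mean level of 9.52 in each group (Col1a1 13.31 and 12.76, Dcn 12.11 and 12.66). Neutrophil markers were dim (mean 4.40 and 4.43, with 1 of 10 above the median).

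Across the family, no gene passed limma's adjusted p of 0.05 over all genes, which was also the case for the whole array (0 of 22180 genes, 0%). At an unadjusted p under 0.05 there were 7 of 33 genes (21.2%), against 10.6% of all genes tested and 14.9% of the genes above the median signal. Mmp11, Mmp14, Mmp17 and Mmp23 had higher means in the null group, where 6.28% of all genes were called in that direction. Mmp16, Mmp27 and Adam8 had lower means, against 4.27% of all genes. Of all genes at this threshold 59.5% were higher in the null group, or 72.2% with each array centred on its median. The signals of both groups were free of overlap for 6 of 33 genes (18.2%), against 15.8% of all genes and 19.3% of those above the median. Higher in the null group without overlap were Mmp14, Mmp17, Mmp23 and Mmp24 (10.1% of all genes), and lower were Mmp16 and Mmp27 (5.75%). The median difference of the family was 0.09, beside 0.02 for all genes, and was -0.041 without the first wild type array. In all, 20 genes had positive and 13 negative differences, and 26 of the 33 intervals included 0.

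**Figure D1:**
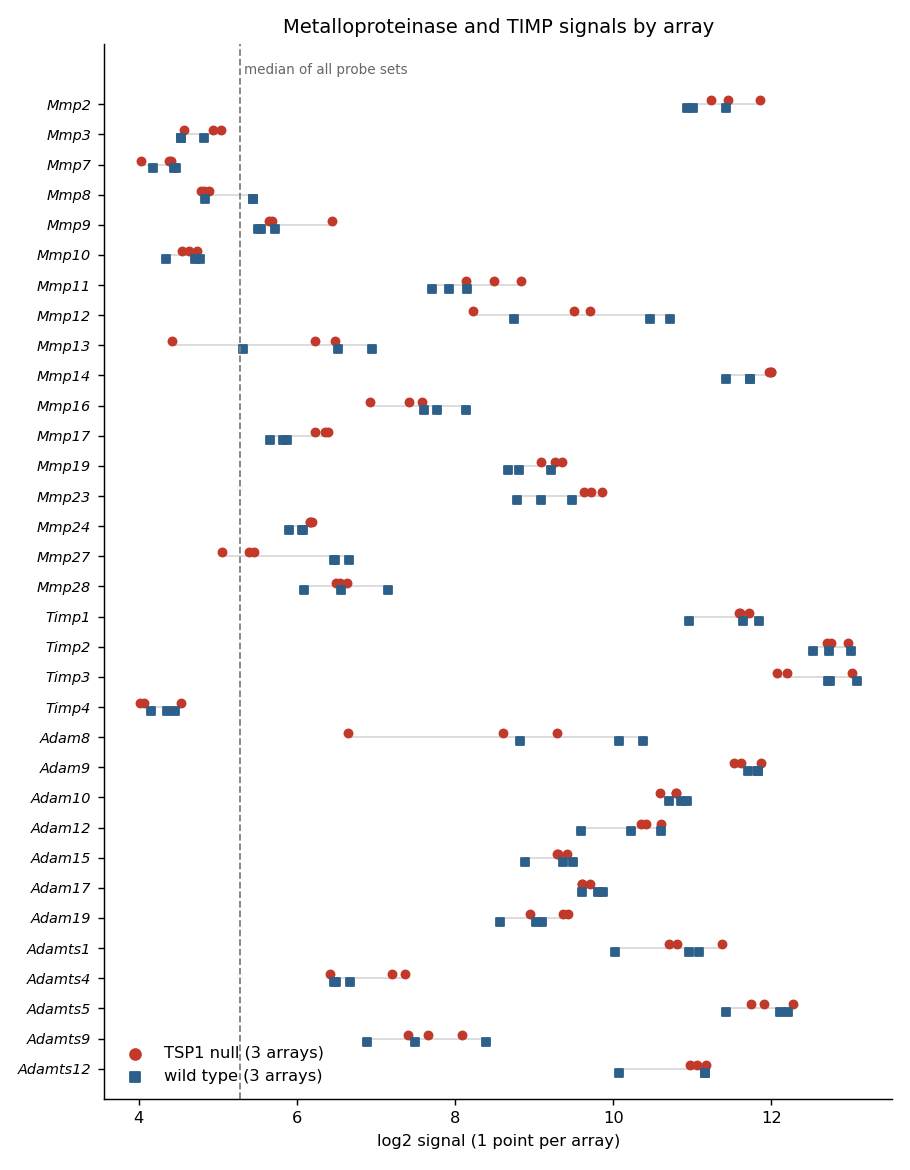
Log2 signal of each of the 33 measured genes (rows) on the 3 TSP1 null arrays (circles) and the 3 wild type arrays (squares), with the median of all probe sets as a dashed line. Most genes have interleaved points, Mmp27 separates the groups widely, and Adam8, Mmp12 and Mmp13 spread over more than 2 log2 units.

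Mmp27 had the smallest p of the family and ranked 3 by p among all 22180 genes. It encodes a little-studied MMP that is reported in macrophages and is largely kept inside the cell. Its log2 signals were 5.46, 5.40 and 5.05 on the null arrays and 6.47, 6.48 and 6.66 on the wild type arrays. The groups were about 1 log2 unit apart at their nearest arrays, and the arrays of each group lay close together. This put the null mean 2.36-fold below the wild type mean, at a difference of -1.24 (SE 0.14, 3 arrays a group) and an adjusted p of 0.161 by limma. When 1 array was left out the difference ran from -1.31 to -1.11. The gene passed the threshold in 1 of 16 alternatives, in which the first wild type and the second null array were both left out (limma adjusted p = 0.031). Earlier results of these data had singled out that pair, and 365 of all genes passed without it, so this pass is no separate support. Over the alternatives the adjusted p of Mmp27 ran up to 0.824. On the null arrays its signal lay near the median of all probe sets.

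Adam8 had the largest difference of the family and the widest spread. ADAM8 is a membrane protease of myeloid and other leukocytes. It read 8.60, 9.29 and 6.65 on the null arrays and 8.82, 10.07 and 10.38 on the wild type arrays. The second null array lay above the first wild type array, so the groups overlapped, and the third null array was far below the rest. The difference was -1.58 (SE 0.68, 95% interval -3.15 to -0.0046, adjusted p = 0.472), and it was -0.81 without the third null array.

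Mmp12, the macrophage metalloelastase, showed a similar order of arrays. Its signals were 9.71, 9.50 and 8.22 in the null group and 8.74, 10.47 and 10.71 in the wild type group. The lowest values of the 2 groups were on the third null and the first wild type array, and the groups overlapped. The difference was -0.83 (SE 0.57, adjusted p = 0.651). It was -0.37 when the third null array was left out and -1.45 when that was done with the first wild type array. Mmp13, collagenase-3, a principal collagenase of rodent connective tissue, read 6.48, 6.23 and 4.42 on the null arrays and 5.31, 6.95 and 6.52 on the wild type arrays. Again the third null and the first wild type array were the lowest of their groups. The difference of -0.55 (SE 0.60, adjusted p = 0.796) became 0.097 without the third null array.

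These genes were compared with the macrophage markers array by array. The third null array, which had the lowest macrophage marker mean, was also the lowest of the 6 arrays for Adam8, Mmp12, Mmp13, Mmp27 and Timp3. These were 5 of 33 genes, beside 3100 of 22180 genes overall. The 2 shares are similar, so this position is not particular to the family. The first wild type array had the lowest macrophage marker mean of its group, and it was the lowest wild type array for Adam8, Mmp12 and Mmp13, while Mmp27 was nearly level over the 3 wild type arrays. The same array was the lowest wild type array for 19 of the 33 genes and for 8802 of all 22180. With the macrophage marker mean per array as a second term in the model, the difference of Adam8 changed from -1.58 to 0.094 (SE 0.26). That of Mmp12 changed from -0.83 to 0.27 (SE 0.53) and that of Mmp13 from -0.55 to 0.75 (SE 0.45). None of these genes had an unadjusted p under 0.05 by limma in that fit, so a reversal is not shown. Mmp27 kept a difference of -1.01 (SE 0.16, adjusted p = 0.824), and Mmp17 one of 0.61. Timp3 changed from -0.42 to -0.056. In RNA from whole cultures, fewer cells of a type and less RNA per cell cannot be told apart, and the part of the macrophage markers in these differences was not tested.

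**Figure D2:**
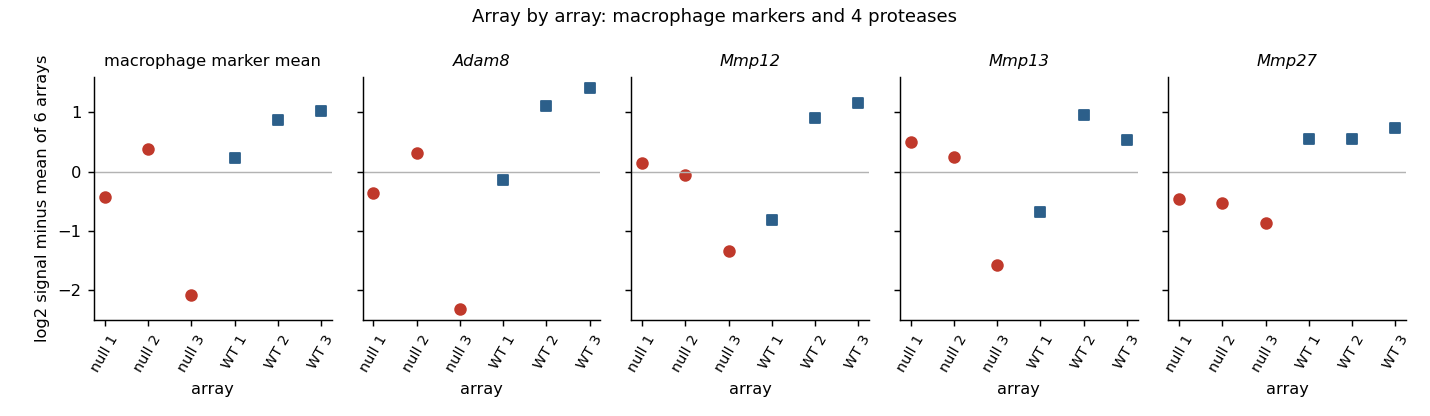
Log2 signal minus the mean of the 6 arrays (vertical axis, log2 units) for the macrophage marker mean, Adam8, Mmp12, Mmp13 and Mmp27, with 1 point per array (circles TSP1 null, squares wild type). The third null array is at -2.08 for the macrophage markers, -2.32 for Adam8 and -1.57 for Mmp13, whereas for Mmp27 all null arrays lie below all wild type arrays.

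**Figure D3:**
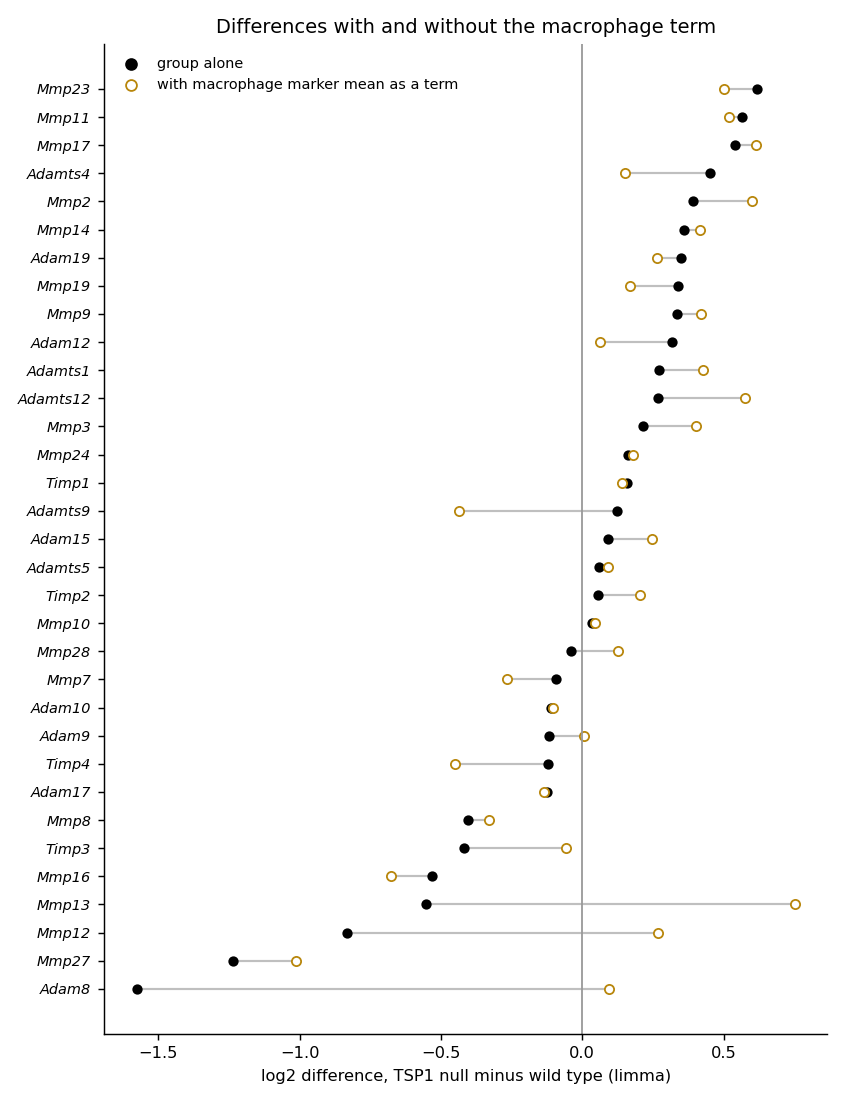
Log2 difference, TSP1 null minus wild type, of each of the 33 genes from limma with the group alone (filled) and with the macrophage marker mean per array as a further term (open). The estimates of Adam8, Mmp12 and Mmp13 cross 0 but have no unadjusted p under 0.05 by limma with that term, and Mmp27 stays at -1.01.

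The gelatinases Mmp2 and Mmp9 cut denatured collagen and basement membrane collagen IV. Mmp2 read 11.45, 11.85 and 11.23 on the null arrays and 11.42, 11.01 and 10.93 on the wild type arrays. The third null array lay below the first wild type array, so the groups overlapped at a difference of 0.39 (SE 0.20, adjusted p = 0.535), which was 0.22 without the second null array. Mmp9 was dimmer, with 6.45, 5.64 and 5.68 against 5.51, 5.72 and 5.54. Its difference of 0.33 (SE 0.22) rested on the first null array, since it was 0.072 without it.

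Membrane-type MMPs act at the cell surface. The arrays of the groups did not overlap for the 4 measured ones of the 35 listed genes, though with limits for Mmp24 and Mmp16. This was the case for 15.8% of all genes and 19.3% of those above the median. Mmp25, a membrane-type MMP outside that list, was dim and its groups overlapped (-0.053, SE 0.10). Mmp14 encodes MT1-MMP, a collagenase that also activates proMMP2 with the help of TIMP2. Its signals were 11.97, 11.99 and 11.995 on the null arrays and 11.42, 11.73 and 11.73 on the wild type arrays. The null arrays were nearly identical, and each was above every wild type array. The difference was 0.36 (SE 0.12, 1.28-fold, adjusted p = 0.391), and 0.26 without the first wild type array. Mmp17 encodes MT4-MMP, which is held in the membrane by a lipid (GPI) anchor. It read 6.40, 6.35 and 6.22 in the null and 5.82, 5.66 and 5.88 in the wild type group, with a gap between the groups larger than the spread inside each. Its difference of 0.54 (SE 0.11, 1.46-fold, adjusted p = 0.275) stayed between 0.48 and 0.59 when an array was left out. Mmp24 encodes MT5-MMP, known from the nervous system, and its signals were 6.16, 6.17 and 6.19 against 5.90, 6.07 and 6.06. The arrays of the groups did not overlap, but the difference of 0.16 (SE 0.10) had an interval from -0.082 to 0.40, and a further probe set that Mmp24 shares with another transcript had overlapping groups. Mmp16, which encodes MT3-MMP, was the exception in direction among the 4 listed ones. It read 6.93, 7.42 and 7.58 in the null and 7.77, 8.14 and 7.61 in the wild type group. The third null and the third wild type array nearly met. Its difference was -0.53 (SE 0.21, adjusted p = 0.437), or -0.34 without the first null array, and the groups overlapped when each array was centred on its median.

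Mmp23 and Mmp11 had the largest positive differences. Mmp23 encodes an MMP anchored by its amino terminus that lacks the usual haemopexin domain. It read 9.85, 9.63 and 9.72 on the null arrays and 9.48, 8.78 and 9.09 on the wild type arrays. Every null array was above every wild type array, and the difference was 0.62 (SE 0.18, 1.54-fold, adjusted p = 0.347). It was 0.80 without the first wild type array and 0.45 without the second. Mmp11 encodes stromelysin-3, which furin activates inside the cell before it is secreted. Its signals were 8.84, 8.14 and 8.49 against 7.71, 7.92 and 8.15, and the second null array lay just below the third wild type array. The difference was 0.56 (SE 0.20, adjusted p = 0.401), and the second probe set of the gene gave 0.50 (SE 0.15).

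**Figure D4:**
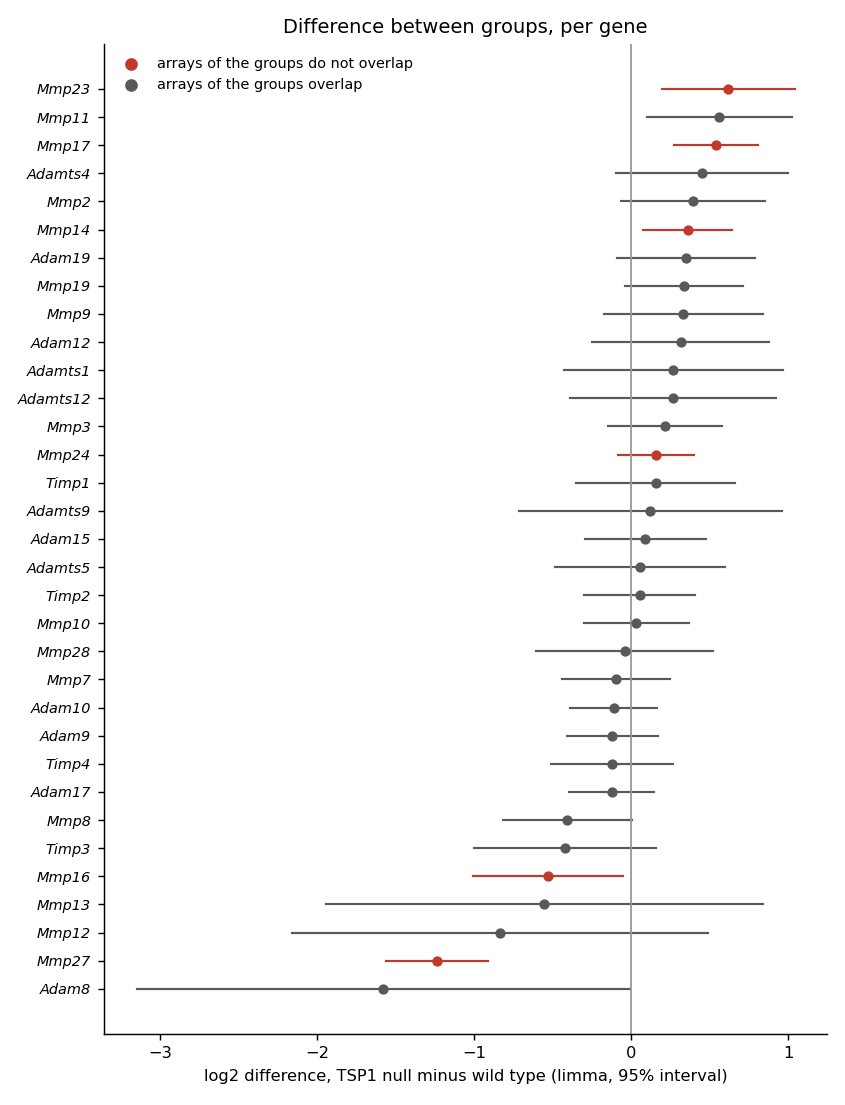
Log2 difference, TSP1 null minus wild type, with its 95% interval from limma for each of the 33 genes, ordered by size. Genes whose null and wild type arrays do not overlap are in red, and the intervals of 26 genes include 0.

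Most remaining MMPs were dim. Mmp3 and Mmp10 are stromelysins, Mmp7 is the epithelial matrilysin and Mmp8 the neutrophil collagenase. Mmp3 read 4.94, 5.04 and 4.58 in the null and 4.83, 4.54 and 4.54 in the wild type group, all below the median of all probe sets. Mmp8 had 4.79, 4.83 and 4.89 against 4.84, 5.44 and 5.45, at a difference of -0.41 (SE 0.18, adjusted p = 0.476), and the second and the third wild type array alone lay above that median. Mmp10 and Mmp7 had differences of 0.035 (SE 0.14) and -0.092 (SE 0.15), with directions that changed when single arrays were left out. Mmp19, a widely expressed MMP, was bright, with means of 9.23 ± 0.13 and 8.90 ± 0.28 (SD, n = 3) and overlapping groups. Mmp28, the epilysin of skin and other epithelia, had means of 6.56 ± 0.07 and 6.60 ± 0.53 (SD, n = 3).

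A group of 7 MMP genes named above lies together on mouse chromosome 9, in the order Mmp13, Mmp12, Mmp3, Mmp10, Mmp8, Mmp27 and Mmp7, with Mmp1b, Mmp1a and Mmp20 between them (RefSeq gene order, GRCm38.p6). Neighbours in the cluster differed in level and in group difference. Mmp27 had a difference of -1.24, while its neighbours Mmp8 and Mmp20 had differences of -0.41 and -0.030. Of the 10 cluster genes, Mmp27 and the dim Mmp1a (0.17, SE 0.12) had groups without overlap, which was the case for 15.8% of all genes. The start regions of the 7 family members are shown because the promoters of several MMP genes of this cluster are classical targets of AP-1, the FOS and JUN factors. Each run gives 80 bases before and 50 after the RefSeq transcription start, on the plus strand, in GRCm38.p6. Capitals mark TGAGTCA (the AP-1 site) and TATAAA, on either strand. Mmp12 has 2 annotated starts, of which the one that holds the motifs is shown, and so has Mmp7.
Mmp13 (chr9:7272434-7272563): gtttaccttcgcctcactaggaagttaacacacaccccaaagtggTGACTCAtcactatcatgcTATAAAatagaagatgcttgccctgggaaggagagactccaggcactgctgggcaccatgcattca
Mmp12 (chr9:7347294-7347423): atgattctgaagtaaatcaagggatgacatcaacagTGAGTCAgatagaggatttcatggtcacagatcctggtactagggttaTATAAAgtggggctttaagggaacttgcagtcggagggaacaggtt
Mmp3 (chr9:7445742-7445871): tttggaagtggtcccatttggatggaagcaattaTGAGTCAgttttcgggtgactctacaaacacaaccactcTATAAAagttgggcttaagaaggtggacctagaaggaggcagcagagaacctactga
Mmp10 (chr9:7502262-7502391): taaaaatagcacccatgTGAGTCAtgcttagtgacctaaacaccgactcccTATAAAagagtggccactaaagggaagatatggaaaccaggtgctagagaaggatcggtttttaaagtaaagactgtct
Mmp8 (chr9:7558349-7558478): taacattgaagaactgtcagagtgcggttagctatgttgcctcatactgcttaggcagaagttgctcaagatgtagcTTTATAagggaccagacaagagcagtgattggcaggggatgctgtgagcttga
Mmp27 (chr9:7571316-7571445): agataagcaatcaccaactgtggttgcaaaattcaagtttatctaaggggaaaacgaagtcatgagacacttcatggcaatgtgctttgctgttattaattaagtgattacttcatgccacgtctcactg
Mmp7 (chr9:7692010-7692139): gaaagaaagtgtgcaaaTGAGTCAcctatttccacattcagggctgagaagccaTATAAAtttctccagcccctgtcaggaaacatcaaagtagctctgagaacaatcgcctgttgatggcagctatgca

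Both motifs were found in the windows of Mmp13, Mmp12, Mmp3, Mmp10 and Mmp7, with the AP-1 motif first. From its start to the start of TATAAA there were between 19 and 48 bases. Counted from the annotated transcription start, TATAAA began at -29 in Mmp10, -26 in Mmp7, -16 in Mmp13 and -7 in Mmp3. In Mmp12 it lay after that start, from base 5 on. Mmp8 held TATAAA alone, and Mmp27 held neither motif in the window shown or in the 300 bases of its table entry. Of all 32851 RefSeq promoter entries of 300 bases, 5.20% held TGAGTCA, 13.6% held TATAAA and 0.941% held both. Of the 26 family genes with an entry, 6 held TGAGTCA (the sixth was Adam19) and 5 held both. A match is a description of the letters and not evidence that a factor binds there. Of the members that carry the AP-1 motif, Adam19, Mmp3 and Mmp10 had positive and Mmp12, Mmp13 and Mmp7 negative differences. None of them had an unadjusted p under 0.05 by limma. Mmp7, Mmp10, Mmp12 and Mmp13 changed direction in at least 1 alternative, so these signs are unsettled. A part of AP-1 in these differences was not tested.

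**Figure D5:**
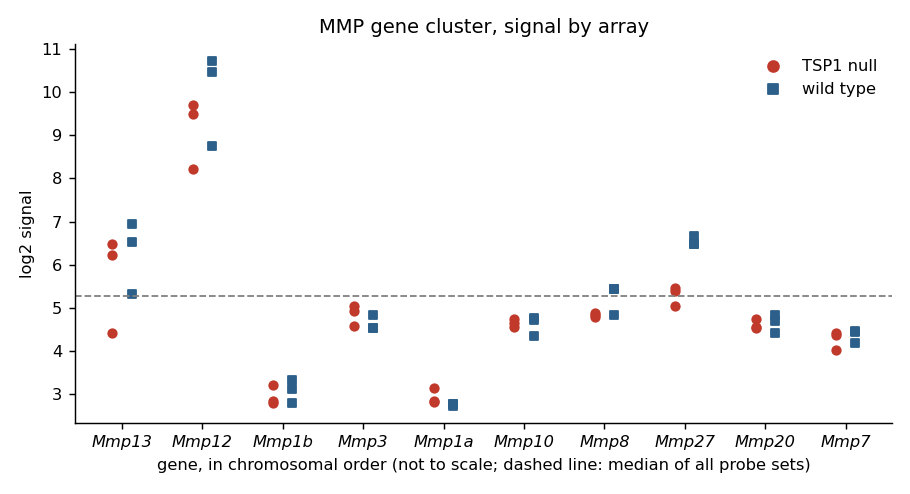
Log2 signal of the 10 measured MMP genes of the chromosome 9 cluster in gene order (horizontal axis, not to scale) on each TSP1 null array (circles) and wild type array (squares), with the median of all probe sets as a dashed line. Mmp12 is the gene with points farthest above the line, and Mmp27 is the gene with the widest gap between the groups.

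The inhibitors did not separate the groups. Timp1, a secreted inhibitor with weak action on membrane-type MMPs, read 11.71, 11.58 and 11.60 on the null arrays and 11.64, 10.95 and 11.84 on the wild type arrays. The second wild type array was the lowest, and the difference of 0.16 (SE 0.22, adjusted p = 0.849) was -0.10 without it. Timp2, which bridges MT1-MMP and proMMP2, had 12.70, 12.97 and 12.75 against 12.52, 13.01 and 12.73, with every null array inside the range of the wild type arrays. Its difference was 0.057 (95% interval -0.30 to 0.41), and it was -0.058 without the first wild type array. Timp3, the inhibitor that stays in the matrix and also blocks ADAM17 and the aggrecanases, read 12.19, 13.02 and 12.07 in the null and 13.08, 12.72 and 12.75 in the wild type group. The first and the third null array were low and the second null array was among the highest, at a difference of -0.42 (SE 0.25, adjusted p = 0.599). Without the second null array the difference was -0.72. Timp4 was dim, between 4.01 and 4.53 over the 6 arrays.

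Among the sheddases, Adam10 and Adam17 were bright and close between groups. Adam10 encodes the main protease that starts Notch cleavage, and it read 10.59, 10.79 and 10.79 on the null arrays and 10.71, 10.94 and 10.85 on the wild type arrays. Adam17 encodes the enzyme that releases TNF and several EGF receptor ligands, and it had 9.61, 9.60 and 9.71 against 9.60, 9.81 and 9.87. Both differences, -0.11 (95% interval -0.39 to 0.16) and -0.12 (-0.39 to 0.15), were small and their arrays overlapped. Of the other ADAMs, Adam9 (mean 11.67 ± 0.18 against 11.79 ± 0.07) and Adam15 (9.33 ± 0.07 against 9.24 ± 0.32, SD, n = 3) also overlapped. Adam12 and Adam19, the meltrins, which are expressed in mesenchymal and muscle lineages, had positive differences of 0.32 (SE 0.24) and 0.35 (SE 0.19), neither past the threshold. Adam12 depended on the second wild type array, at 0.042 without it, and Adam19 measured 0.19 without the first wild type array and 0.20 as the mean of its probe sets.

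All 5 measured ADAMTS genes of the family list had positive differences, and in none did the groups separate. Differences were positive for 55.1% of all genes and 58% of those above the median. Among the further ADAMTS genes, which are outside that list, Adamts7 (0.45) and the dim Adamts8 (0.53) had groups without overlap. Of these further genes, Adamts13 (-0.15), Adamts17 (-0.0065) and Adamts18 (-0.012) had negative and the others positive differences. Adamts1, which cuts versican and aggrecan, read 10.81, 11.37 and 10.70 on the null arrays and 11.09, 10.96 and 10.02 on the wild type arrays. The third wild type array was lowest, and the difference of 0.27 (SE 0.30, adjusted p = 0.802) was -0.062 without it. The aggrecanases Adamts4 and Adamts5 had means of 6.996 ± 0.50 against 6.54 ± 0.11 and 11.97 ± 0.27 against 11.91 ± 0.43 (SD, n = 3). Adamts4 was higher on the first and the third null array (7.37 and 7.20) than on any wild type array, with the second null array at 6.42. Adamts12, which cuts cartilage oligomeric matrix protein, measured 11.06 ± 0.10 against 10.80 ± 0.63, and Adamts9, a versicanase, 7.71 ± 0.34 against 7.59 ± 0.76 (SD, n = 3). For Adamts12 the first wild type array stood apart, at 10.07. For Adamts9 the first wild type array was the highest of the 6 arrays, at 8.39, and the second the lowest, at 6.89. Adamts5, Adamts9 and Adamts12 changed direction when a single array was left out.

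Genes that act with these proteases were described by the same fit. Apart from the further family genes (14 of 28), most genes of each list below lay above the median signal. Of all genes above that median, 14.9% had an unadjusted p under 0.05 by limma and 58% a positive difference, both more than over all genes. Of 28 further MMP, ADAM and ADAMTS family genes, 4 (14.3%, against 10.6% of all genes) had an unadjusted p under 0.05, all higher in the null group. They were Adam22 (0.41, SE 0.13), Adamts7 (0.45, SE 0.15), Adamts8 (0.53, SE 0.18) and Adam23 (0.82, SE 0.31). The median difference of the 28 genes was 0.09. Among 25 activators, regulators and clearance receptors 6 were higher and 1 lower at that threshold (28% in all, against 10.6% of all genes), at a median of -0.06. The smallest p values belonged to Spock2, a matrix proteoglycan (0.57, SE 0.11), Pcsk6, a proprotein convertase that activates proenzymes (1.53, SE 0.31), Plat, tissue plasminogen activator (0.93, SE 0.23), and Rhbdf1, an iRhom that carries ADAM17 to the surface (0.39, SE 0.11).

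Transcription factors and signals known to drive protease genes were read in the same way. Of 17 measured transcription factors 4 were higher and 2 lower at an unadjusted p under 0.05 (35.3%, against 10.6% of all genes), with a median of 0.22. Differences were positive for 13 of the 17 (76.5%), against 55.1% of all genes. The groups did not overlap for 5 of the 17 (29.4%), against 15.8% of all genes and 19.3% of those above the median. These 5 were higher in the null group, as were 10.1% of all genes without overlap in that direction. The AP-1 members Fosl2 (0.66, SE 0.12, adjusted p = 0.216) and Jund (0.96, SE 0.19, adjusted p = 0.25) and the factor Cebpb (0.41, SE 0.13) were higher. Etv5, an ETS factor, was lower (-0.56, SE 0.21), as was Atf3 (-0.67, SE 0.28). The other FOS and JUN genes of the list did not reach that threshold. They were Jun (0.32, SE 0.15), Junb (0.50, SE 0.23), Fos (0.28, SE 0.45) and Fosb (-0.0042, SE 0.19). Among 21 inducing cytokines and receptors 3 were higher and 3 lower (28.6%, against 10.6% of all genes). Il6 had a difference of 0.62 (SE 0.15), Tgfb3 one of 0.39 (SE 0.14), Osm one of -0.40 (SE 0.16) and Tgfbr1 one of -0.48 (SE 0.19). The TGF-beta ligands did not share a direction with Tgfb3, as Tgfb1 had -0.58 (SE 0.25) and Tgfb2 -0.23 (SE 0.30). None of these genes passed over all genes tested.

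Matrix substrates, the proteins these enzymes cut, had mostly positive differences. Of 22 measured matrix substrates 20 had positive differences (90.9%, against 55.1% of all genes). An unadjusted p under 0.05 was reached by 9 of them (40.9%, against 10.6%) and by none with a lower mean, with a median of 0.35 beside 0.02 for all genes. Col5a1 (0.68, SE 0.14), Col1a2 (0.51, SE 0.11), Lamb1 (0.40, SE 0.10) and Col3a1 (1.03, SE 0.27) led by p. Col1a2 and Col3a1 are also among the fibroblast markers used here. Of 22 surface proteins that ADAM proteases or MMPs shed, 5 were higher and 2 lower (31.8%, against 10.6% of all genes). The syndecans Sdc4 (0.75, SE 0.19) and Sdc1 (0.47, SE 0.13) were higher, and Mertk, a phagocytic receptor of macrophages, and Tgfa, an EGF receptor ligand, were lower at -1.35 (SE 0.42) and -0.39 (SE 0.12). Mertk had its lowest signal, 6.33, on the third null array, where the macrophage markers were also lowest, and their part in its difference was not tested. No matrix or shed substrate passed the adjusted threshold.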

How the data were processed

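Each array's 41345 probe sets carry log2 signals, used as the authors deposited them, with nearly equal medians across arrays. The submitters' processing notes name Partek and RMA, with no role, and their versions and settings are unknown here. Differences of dim genes are usually compressed on such a scale. Raw scanner files were not used here, and precision is limited by the number of arrays. The platform's annotation gave 23521 probe sets 1 symbol, 1814 more than 1 and 16010 no symbol.

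TSP1 null and wild type arrays (3 each, grouped by sample title) were compared with limma 3.58.1 (lmFit, eBayes, two-sided, no covariate) in R 4.3.3 over 22180 genes, with Benjamini-Hochberg adjustment over all of them and a threshold of 0.05. On simulated data with 22180 genes and 3 arrays a group, 63.9% of 2-fold and 93.9% of 4-fold changes were recovered over 10 runs, with 5.17% of calls false. The simulated noise was independent between genes, with spreads shuffled over all genes. The family's median SD was larger (0.21 in the null and 0.27 in the wild type group, against 0.147 and 0.165 for all genes). These rates therefore check the code and do not give the share of family changes that could be found here. Promoter sequences are RefSeq's (GRCm38.p6). Python 3.11.15 and matplotlib 3.10.9 drew the figures.

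All 33 measured genes are named. Values on every array are given for genes with an unadjusted p under 0.05, for genes whose groups do not overlap and for 12 genes chosen by role. At most 4 genes of each pathway list are named by smallest p. Some others of these lists are named beside genes related to them. The family and the lists were chosen with earlier results of these data known. The alternatives were quantile normalization, median centring, dim genes left out, the mean of a gene's probe sets, array weights, an ordinary linear model, limma's trend and robust options, a block for the replicate number, the macrophage marker mean as a covariate, each array left out, and a pair of arrays left out that earlier results had singled out.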

Additional observations from a re-analysis of the deposited data

How the results depend on the processing

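The fit was repeated under 16 alternatives, and 18 of 33 genes kept their direction in each that could test them (5 dim genes had 15). Family genes at an unadjusted p under 0.05 numbered 7 of 33 as reported (10.6% of all genes), 12 with array weights (14.5%), 4 with the macrophage marker mean as a covariate (5.89%), 4 to 10 with 1 array left out (6.70% to 12.3%) and 14 with both the first wild type and the second null array left out (15.8%). Family genes without overlap went from 6 to between 7 and 16 with 1 array left out and 24 without those 2, as fewer arrays overlap less. The share over all genes was not counted in these fits, so the rise says nothing about the family. All genes passing the adjusted threshold went from 0 to between 0 and 34 (without the second null array) and 365 without those 2, when 1 family gene, Mmp27, passed. Those 2 arrays had been singled out by earlier results of these data, so counts without them are no separate support. The median difference of the family ran from -0.041 (without the first wild type array) to 0.16. Mmp17 and Mmp27 had an unadjusted p under 0.05 in 16 alternatives, Mmp23 in 15, Mmp14 in 12, Mmp16 in 11, Mmp11 in 10 and Adam8 in 6.

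The macrophage term turned Mmp12 (0.27), Mmp13 (0.75), Mmp28 (0.13), Adam8 (0.094), Adam9 (0.0060) and Adamts9 (-0.44), and array weights turned Mmp10 (-0.021). Leaving out both arrays turned Mmp7 (0.083), Mmp10 (-0.097), Timp2 (-0.14), Timp4 (0.044), Adam15 (-0.13) and Adamts12 (-0.15). Leaving out 1 array gave ranges of -0.19 to 0.031 for Mmp7, -0.099 to 0.12 for Mmp10, -1.03 to 0.097 for Mmp13, -0.29 to 0.23 for Mmp28, -0.10 to 0.34 for Timp1, -0.058 to 0.18 for Timp2, -0.088 to 0.21 for Adam15, -0.062 to 0.47 for Adamts1, -0.19 to 0.21 for Adamts5, -0.23 to 0.53 for Adamts9 and -0.096 to 0.45 for Adamts12. The cause was not tested. With the replicate number as a block (replicate block) 7 family genes had an unadjusted p under 0.05 (9.99% of all genes), with Mmp8 in place of Adam8. Deviations of same-numbered arrays correlated at -0.14, 0.18 and -0.16, and only the second null array correlated best with its own number. With so few arrays a group, such weak correlations cannot decide whether the numbers pair the arrays, which is unknown here.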

Other observations

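One probe set that names Mmp24 together with another transcript, BC029722, was not used for the comparison. It read 7.43, 7.98 and 7.48 on the null arrays and 7.45, 7.89 and 7.64 on the wild type arrays, so its groups overlapped, unlike those of the probe set that names Mmp24 alone. Second, dimmer probe sets of Adam15, Adam19 and Mmp7 had differences of -0.0036 (SE 0.13), 0.054 (SE 0.17) and -0.055 (SE 0.14).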
